A study of Homo sapiens with 6 samples.

Results

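The genes described here are those of pyruvate entry and the tricarboxylic acid (TCA) cycle. They are 34 gene symbols, chosen by name from textbook knowledge of the pathway and looked up in the deposited table of counts. Earlier results of these data were known when they were chosen. Of the 34, 33 had a row among the 33451 genes of the table, and 32 had enough counts to be tested. ME1 was not analysed here, and PDK4 was at or under 3 counts in every library. The cells were MDA-MB-453, an established line of human breast cancer cells, here cultured for 5 days in 100 nM 25(OH)D, the main circulating form of vitamin D (experiment group, EG), or in the alcohol solvent alone (control group, CG). There were 3 mRNA libraries in each group, with no difference in genotype between them, and all 6 came from this 1 cell line. The labels do not name separate cultures for the 3 libraries of a group, so the p-values given here measure the spread between these libraries.

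Pyruvate made in the cytosol is carried into the mitochondrion, where the pyruvate dehydrogenase complex turns it into acetyl-CoA. Kinases switch that complex off by phosphorylating it, and phosphatases switch it back on. The TCA cycle then joins acetyl-CoA to oxaloacetate as citrate and oxidises it in steps back to oxaloacetate, passing electrons to NADH and to succinate dehydrogenase, which is also a complex of the respiratory chain. Some steps also have enzymes outside the mitochondrion or outside the cycle, among them IDH1, MDH1 and the malic enzymes, which move carbon and NADPH between compartments. Tumour cells use the cycle both for energy and as a source of building blocks for lipids and amino acids.

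The libraries held between 33268860 and 40928176 counts. Genes of the mitochondrial genome, none of which is in the list, took 7.85% to 7.99% of the counts in CG and 8.89% to 9.24% in EG. The markers ERBB2, FOXA1, KRT8, KRT18 and KRT19 of the line were all present, with a summed level of 803 to 845 RPKM in CG and 742 to 763 RPKM in EG, where RPKM are counts per gene length and library total. Of the 8 markers of other cell types, 7 were in the table, and their sum was 3.80 to 4.11 RPKM in CG and 3.58 to 3.64 RPKM in EG, nearly all of it COL1A1. Without COL1A1 the sum was 0.0874 to 0.164 RPKM in CG and 0.209 to 0.412 RPKM in EG, no library had over 24 counts of any of these genes, and CD3E was at 0 in all CG libraries. The part of these differences in the results below was not tested, other than by leaving out the mitochondrial genome.

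In EG, 12 of the 32 tested genes rose and 0 fell at an adjusted p under 0.05 by the quasi-likelihood test of edgeR, adjusted by Benjamini and Hochberg's method over all 18183 genes tested. The 12 were the pyruvate carriers MPC1 and MPC2, DLD of the pyruvate dehydrogenase complex, IDH1, all 3 subunits of the NAD-linked isocitrate dehydrogenase (IDH3A, IDH3B and IDH3G), OGDH and DLST of the oxoglutarate dehydrogenase complex, SUCLG2, SDHA and SDHC. Of all genes tested, 33.8% were called in either direction, 17.3% higher and 16.5% lower, while 37.5% of the listed genes were called. The share called was thus near that of all genes, and all of the calls were in the higher direction. At an unadjusted p under 0.05, 14 were higher and 1, PDK2, was lower. DESeq2 called 12 higher and 0 lower, and limma on the RPKM values called 10 higher and 0 lower. The median log2 fold change of EG against CG was 0.07 over the 32 genes, with quartiles of -0.02 and 0.23, against -0.01 over all genes tested, and 21 were above 0. Most of the changes were small: with the limits of the study, a log2 fold change beyond 1 in size at an unadjusted p under 0.05, which 6.65% of all genes tested met, IDH1 was the 1 gene called, and it was higher.

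**Figure D1:**
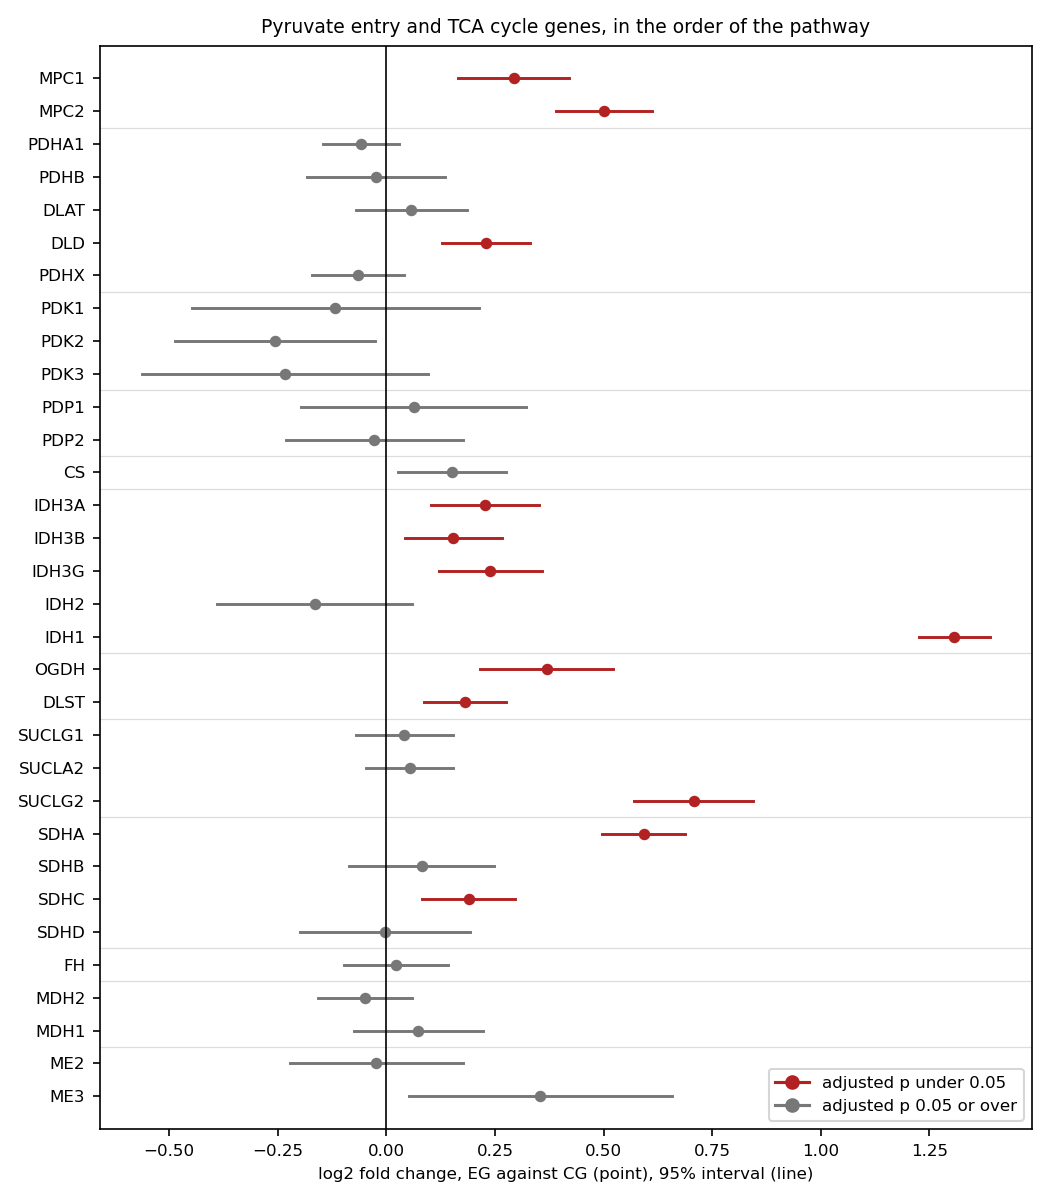
Log2 fold change of EG against CG (horizontal axis) with its 95% interval for each of the 32 tested genes, in the order of the pathway from pyruvate import to the malic enzymes. The 12 genes with an adjusted p under 0.05 all lie to the right of 0, and IDH1, at 1.31, lies farthest out.

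The groups did not overlap, with each EG library above each CG library, in 13 of the 32 genes, the 12 called genes and CS. Of all genes tested, 45.7% had groups that did not overlap. With the genes of the mitochondrial genome left out, 13 of the listed genes were called higher and 0 lower. Without EG replicate 3, 12 were higher and 1, PDK2, was lower.

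The summed level of all listed genes was between 440 and 451 RPKM in the CG libraries and between 525 and 543 RPKM in the EG libraries. Much of that difference was IDH1. Without IDH1 the sums were 402, 409 and 411 RPKM in CG and 443, 451 and 432 RPKM in EG, so the groups stayed apart by less. In CG, IDH1 (38.3 RPKM), PDHA1 (36.9 RPKM), PDHB (36.8 RPKM) and IDH3B (35.5 RPKM) had the highest mean levels per length, and the range of PDHB overlapped those of the other 3, while that of IDH3B overlapped PDHA1 but ended below IDH1. In EG, IDH1 stood alone at 92.0 RPKM, followed by IDH3B at 38.4 RPKM and MPC1 at 37.8 RPKM. The kinases, phosphatases and malic enzymes were the lowest of the tested genes in both groups, down to 0.383 RPKM in CG and 0.342 RPKM in EG for PDK1. The length used is that of all annotated exons, which lowers the level per length of genes with long alternative ends such as PDK1 and SDHC.

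**Figure D2:**
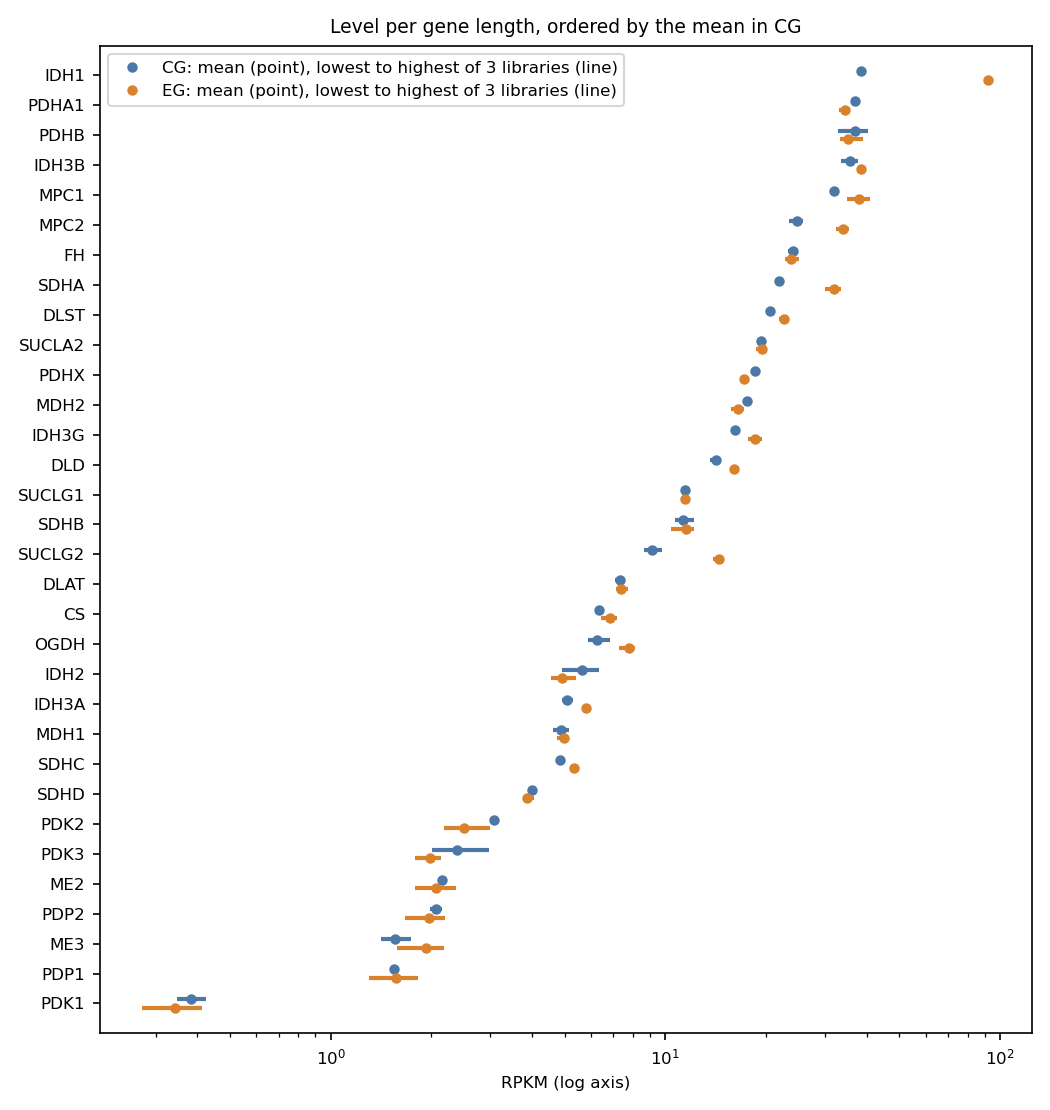
RPKM on a log axis for the 32 tested genes, ordered by their CG mean, with the mean as a point and the lowest to highest of 3 libraries as a line. IDH1 moves from 38.3 to 92.0 RPKM, while most genes keep their CG and EG points close together.

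Both subunits of the mitochondrial pyruvate carrier, which brings pyruvate across the inner membrane, rose in EG. MPC1 (chromosome 6, 166364919 to 166383013, minus strand of GRCh38) was at 47.6, 48.1 and 49.8 CPM in CG and 59.7, 63.5 and 55.0 CPM in EG, where CPM are counts relative to the library size after scaling by TMM factors. Its log2 fold change was 0.29 (SE 0.0597, adjusted p = 0.00153). MPC2 (chromosome 1, 167916729 to 167937040, minus strand) was at 62.3, 64.6 and 59.3 CPM in CG and at 88.4, 91.0 and 84.1 CPM in EG. Every EG library lay above every CG library for both genes, and EG replicate 3 was the lowest of the EG libraries for both. The rise of MPC2 was a log2 fold change of 0.50 (SE 0.0517, adjusted p = 3.26e-06). MPC2 shares 575 exon bases, 22.5% of its exons, with DCAF6 on the opposite strand, which also rose (log2 fold change 0.36, adjusted p = 2.52e-05), and the strand setting of the counting is not stated, so reads from those bases cannot be assigned to either gene. The RPKM ratio of MPC2 to MPC1 was 0.776 ± 0.0483 in CG and 0.897 ± 0.0299 in EG (SD, n = 3 each), with no overlap and a two-sided exact permutation p of 0.1, the smallest that 3 libraries against 3 allow.

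Among the 5 genes of the pyruvate dehydrogenase complex, DLD rose and the other 4 did not pass the test. DLD (chromosome 7, 107890970 to 107931730, plus strand) encodes the dihydrolipoamide dehydrogenase subunit, which the oxoglutarate and branched-chain oxo acid dehydrogenase complexes use too. It was at 71.0, 76.3 and 74.0 CPM in CG and 87.9, 86.7 and 84.8 CPM in EG, without overlap, a log2 fold change of 0.23 (SE 0.0472, adjusted p = 0.00163). PDHA1 and PDHB, the alpha and beta subunits of the decarboxylase, had log2 fold changes of -0.06 and -0.02. DLAT, the acetyltransferase core, had 0.06, and PDHX, which tethers DLD to the core, had -0.06. The adjusted p of these 4 genes was between 0.310 and 0.840, and the libraries of the groups overlapped for all of them. Their 95% intervals of the fold of EG over CG lay between 0.880 and 1.14, so the data leave room for small changes in either direction. The RPKM ratio of DLD to PDHA1, chosen after the values were seen and given without a test, was 0.372, 0.396 and 0.379 in CG and 0.459, 0.467 and 0.475 in EG.

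None of the listed kinases and phosphatase subunits of the complex passed the test. PDPR, a regulatory phosphatase subunit outside the list, rose and is described under the other observations. The kinases phosphorylate PDHA1. PDK2, the kinase with the highest level per length in this line (3.09 RPKM in CG), was at 16.8, 16.8 and 16.4 CPM in CG and at 12.1, 13.0 and 16.8 CPM in EG. EG replicates 1 and 2 lay below all CG libraries, and EG replicate 3 lay among them. Its log2 fold change was -0.26 (SE 0.107, adjusted p = 0.0811), and without EG replicate 3 it was -0.39 (adjusted p = 0.00328). PDK2 shares 38.6% of its exon bases with SAMD14 on the opposite strand, which had 197 counts over the 6 libraries against 3413 of PDK2. PDK3 had a log2 fold change of -0.23 and PDK1 of -0.12 (adjusted p = 0.273 and 0.606), with overlapping groups, and PDK1 turned to 0.024 without EG replicate 1. Without CG replicate 1, the highest of its group at 7.88 CPM against 5.31 and 5.87, the log2 fold change of PDK3 was -0.039. PDK4 had 0, 0 and 2 counts in CG and 0, 0 and 1 in EG, too few for a fold. PDP1 and PDP2, the catalytic subunits of the phosphatases that reverse the kinases, had log2 fold changes of 0.06 and -0.03 (adjusted p = 0.733 and 0.857).

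The balance between kinases and phosphatases overlapped between the groups. The summed RPKM of the kinases over that of the phosphatases was 1.74, 1.59 and 1.53 in CG and 1.10, 1.30 and 1.81 in EG, so EG replicates 1 and 2 were below all CG libraries and EG replicate 3 was above them (two-sided exact permutation p = 0.4). Over PDHA1, the summed kinases were 0.159 ± 0.0156 in CG and 0.141 ± 0.0214 in EG (SD, n = 3 each, exact permutation p = 0.4). The share of each kinase differed between the groups by less than its spread between libraries. PDK2 took 52.8% ± 4.10 of the summed kinase RPKM in CG and 51.8% ± 4.07 in EG, PDK3 took 40.5% ± 4.95 and 41.1% ± 3.20, and PDK1 took 6.58% ± 0.962 and 7.08% ± 1.17 (SD, n = 3 each, exact permutation p = 0.7, 0.9 and 0.5).

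Citrate synthase, CS, which makes citrate and so opens the cycle, did not pass the test. Its libraries were at 39.7, 40.8 and 39.5 CPM in CG and 46.8, 44.3 and 42.1 CPM in EG. The groups did not overlap, with a log2 fold change of 0.15 (SE 0.0581, adjusted p = 0.0603). Without EG replicate 3, the lowest of its group, the log2 fold change was 0.20 (adjusted p = 0.0224), and with the mitochondrial genome left out it was 0.16 (adjusted p = 0.0443). ACO1, the cytosolic enzyme that turns citrate into isocitrate, was not in the list but was looked up beside it. It rose from 18.3 ± 1.51 to 24.6 ± 2.03 CPM (SD, n = 3 each, log2 fold change 0.43, adjusted p = 0.00112).

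IDH1 was the gene that changed most. It encodes the NADP-linked isocitrate dehydrogenase of the cytosol and peroxisomes, which makes oxoglutarate and NADPH, and lies at chromosome 2, 208236227 to 208266074, on the minus strand of GRCh38. Its CG libraries were at 176, 175 and 184 CPM, and its EG libraries were at 440.3, 435 and 449 CPM. The groups lay far apart, and the libraries within a group lay close together. The log2 fold change was 1.31 (SE 0.0376, adjusted p = 3.24e-12), a fold of 2.48 with a 95% interval of 2.34 to 2.62. Leaving out each library in turn gave log2 fold changes between 1.30 and 1.34. By p-value IDH1 ranked 58 of the 18183 genes tested, and 2.55% of them were called with a log2 fold change at least as high. No stretch of 100 bases of its transcripts was found in a transcript of another gene.

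**Figure D3:**
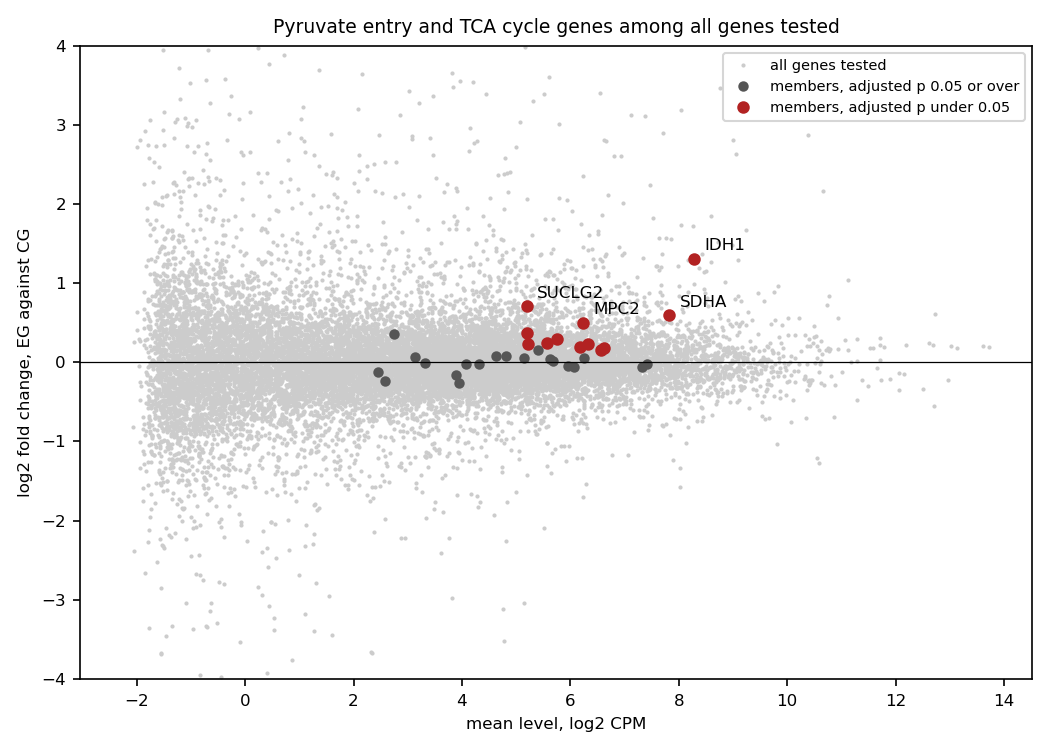
Log2 fold change of EG against CG (vertical axis) against mean log2 CPM (horizontal axis) for all genes tested, with the listed genes marked over them. The axis ends at an absolute value of 4, beyond which 90 genes lie, and IDH1, at 1.31, stands above the rest of the listed genes.

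Upstream of IDH1 the reference sequence is shown because this gene carried the largest change of the list. The RefSeq promoter window was cut so that it ends before the nearest annotated exon of IDH1. The stretch is chr2:208255134-208255321 of GRCh38.p14 on the minus strand, and it holds 3 GC boxes (GGGCGG, both strands) in 188 bases of 66% GC. It holds no NRF1 motif (GCGCA and GCGC with any base between them), E-box (CACGTG) or nuclear receptor half-site (AGGTCA). It overlaps no annotated exon of IDH1, and exons of other genes were not checked. It lies inside the span of the gene, since longer transcripts of IDH1 are annotated from further upstream.
IDH1: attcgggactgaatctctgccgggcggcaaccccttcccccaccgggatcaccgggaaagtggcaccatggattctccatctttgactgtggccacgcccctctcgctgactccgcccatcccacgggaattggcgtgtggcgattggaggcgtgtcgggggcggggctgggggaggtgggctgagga
A vitamin D response element of the DR3 type, a pair of half-sites set apart by a short spacer, was searched for by name and was in 0 of the 42 promoter windows of the listed genes and in 0.0655% of the 35116 windows of all genes. This search used the whole windows of 250 bases before each start, of which the stretch above is a part for IDH1, and no match says only that these letters are not in them.

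The mitochondrial isocitrate dehydrogenases split. The NAD-linked enzyme of the cycle is built from IDH3A, IDH3B and IDH3G, and all 3 rose by small amounts. IDH3A (chromosome 15, 78131498 to 78171949, plus strand), the catalytic subunit, was at 35.6, 33.0 and 34.4 CPM in CG and 40.9, 40.3 and 39.3 CPM in EG (log2 fold change 0.23, SE 0.0577, adjusted p = 0.00712). IDH3G (chromosome X, 153785766 to 153794523, minus strand), a regulatory subunit, was at 43.8, 42.1 and 44.0 CPM in CG and 51.3, 53.1 and 49.0 CPM in EG (log2 fold change 0.24, SE 0.0550, adjusted p = 0.00355). IDH3B (chromosome 20, 2658395 to 2664219, minus strand), the other regulatory subunit, was at 84.7, 89.7 and 95.4 CPM in CG and 99.0, 97.3 and 104 CPM in EG (log2 fold change 0.15, SE 0.0520, adjusted p = 0.0341). None of the 3 subunits had overlapping groups, but the gap was narrow for IDH3B, where the highest CG library was close under the lowest EG library. IDH3B was called in 7 of 15 alternatives, with the call lost without CG replicate 1 (adjusted p = 0.121), CG replicate 2 (0.0887), EG replicate 1 (0.0586) or EG replicate 3 (0.0768). IDH3A shares 38.2% of its exon bases with ACSBG1 on the opposite strand, which had 2166 counts against 8264 of IDH3A and also rose (log2 fold change 0.29, adjusted p = 0.0282), and IDH3G shares 10.2% with SSR4 on the opposite strand (log2 fold change 0.38, adjusted p = 3.08e-04).

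IDH2, the NADP-linked enzyme of the mitochondrion, did not follow them. It was at 17.6, 13.6 and 15.9 CPM in CG and 15.6, 13.3 and 13.1 CPM in EG, with overlapping groups. The log2 fold change was -0.16 (SE 0.104, adjusted p = 0.255), a fold of 0.892 with a 95% interval of 0.764 to 1.04. The RPKM ratio of the cytosolic IDH1 to the mitochondrial IDH2 was 5.97, 7.68 and 6.89 in CG and 16.9, 19.4 and 20.4 in EG, and the ratio of IDH2 to IDH3A was 1.20, 0.997 and 1.13 in CG and 0.924, 0.804 and 0.809 in EG. Both ratios separated the groups without overlap, each with an exact permutation p of 0.1 and an adjusted p of 0.22 over the 11 ratios computed.

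**Figure D4:**
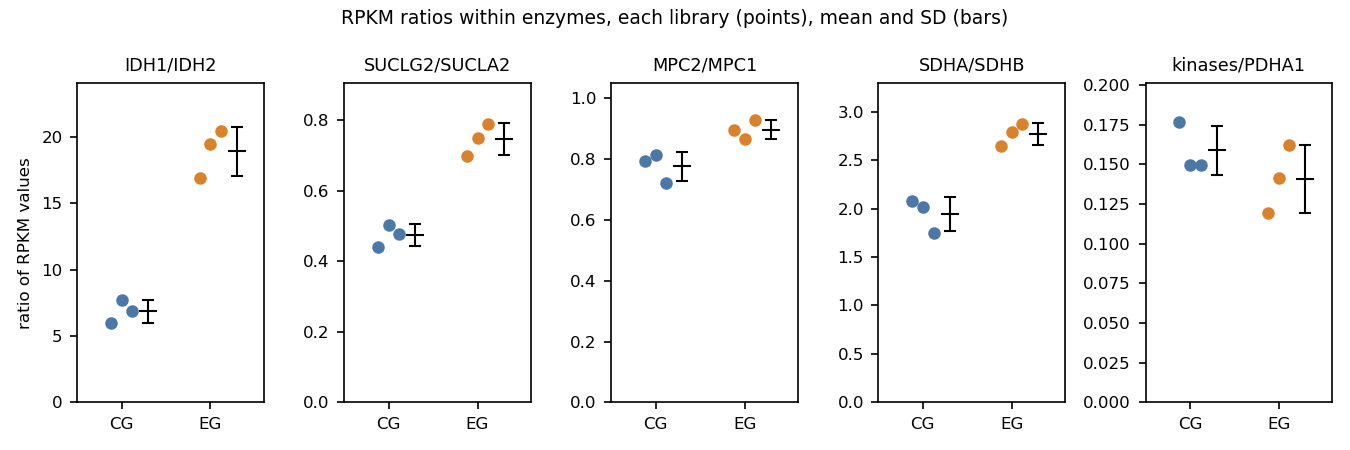
RPKM ratios between listed genes in each library (points) with the mean and SD (bars), for CG and EG. The EG libraries lie above the CG libraries for IDH1 over IDH2, SUCLG2 over SUCLA2, MPC2 over MPC1 and SDHA over SDHB. For the summed kinases over PDHA1 the groups overlap.

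Both listed genes of the oxoglutarate dehydrogenase complex, which turns oxoglutarate into succinyl-CoA and shares the DLD subunit described above, rose. OGDH (chromosome 7, 44606572 to 44709066, plus strand), the decarboxylase, was at 35.1, 30.6 and 30.3 CPM in CG and 43.1, 42.3 and 38.7 CPM in EG. That was a log2 fold change of 0.37 (SE 0.0711, adjusted p = 9.72e-04). DLST (chromosome 14, 74881891 to 74903745, plus strand), the succinyltransferase core, was at 90.9, 91.1 and 94.1 CPM in CG and 105, 107 and 102 CPM in EG, a log2 fold change of 0.18 (SE 0.0435, adjusted p = 0.00487). The EG libraries were above the CG libraries throughout for both genes. With DLD, the rises in the shared complex were thus between 0.18 and 0.37 on the log2 scale.

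Succinyl-CoA ligase, the step that makes GTP or ATP, showed an unequal change of its subunits. The common alpha subunit SUCLG1 pairs either with SUCLG2 to make the GTP-forming enzyme or with SUCLA2 to make the ATP-forming one. SUCLG2 (chromosome 3, 67360460 to 67654614, minus strand) was at 26.2, 29.7 and 27.8 CPM in CG and 43.8, 46.1 and 46.6 CPM in EG, far from overlapping. Its log2 fold change was 0.71 (SE 0.0636, adjusted p = 8.00e-07), a fold of 1.63 with a 95% interval of 1.48 to 1.79. SUCLA2 (chromosome 13, 47936491 to 48001354, minus strand) was at 75.6, 74.96 and 74.0 CPM in CG and 79.7, 78.3 and 75.1 CPM in EG, and the groups overlapped (log2 fold change 0.05, adjusted p = 0.410, fold interval 0.969 to 1.11). SUCLG1 had a log2 fold change of 0.04 (adjusted p = 0.584, fold interval 0.953 to 1.11). The intervals of SUCLA2 and SUCLG1 ended below the interval of SUCLG2. SUCLA2 remained the higher of the pair per length, with an RPKM ratio of SUCLG2 to SUCLA2 of 0.441, 0.504 and 0.478 in CG and 0.700, 0.751 and 0.790 in EG (exact permutation p = 0.1, adjusted p = 0.22 over the 11 ratios). Of the 100-base stretches of SUCLG2 transcripts, 5.67% are also in its pseudogene SUCLG2P2, which had at most 6 counts in any library.

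The promoters of this pair are shown because one of the genes rose and the other did not pass the test. The stretch before SUCLG2 is chr3:67654615-67654862 on the minus strand (GRCh38.p14, 248 bases), and that before SUCLA2 is chr13:48001355-48001523 on the minus strand (169 bases). Capitals mark the nuclear receptor half-site AGGTCA in SUCLA2, a motif that 12.1% of the whole 250-base windows of all genes and 9.52% of those of the listed genes hold on either strand.
SUCLG2: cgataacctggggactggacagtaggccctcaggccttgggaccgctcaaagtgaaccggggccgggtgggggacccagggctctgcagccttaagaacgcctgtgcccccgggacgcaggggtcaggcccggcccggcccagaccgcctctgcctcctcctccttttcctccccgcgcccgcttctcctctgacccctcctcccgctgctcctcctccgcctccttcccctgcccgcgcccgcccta
SUCLA2: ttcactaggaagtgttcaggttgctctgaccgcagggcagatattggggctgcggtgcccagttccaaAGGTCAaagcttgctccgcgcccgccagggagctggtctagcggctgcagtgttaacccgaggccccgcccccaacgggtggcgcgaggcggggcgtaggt
Each of the stretches holds 1 GC box, which 42.6% of all windows and 59.5% of the windows of listed genes hold. These matches are a description of the letters and say nothing of binding.

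Succinate dehydrogenase is both an enzyme of the cycle and complex II of the respiratory chain, and its 4 subunit genes also changed unequally. SDHA (chromosome 5, 218241 to 256700, plus strand), the flavoprotein that oxidises succinate, was at 186, 178 and 177 CPM in CG and 275, 284 and 256 CPM in EG. Its log2 fold change was 0.59 (SE 0.0445, adjusted p = 1.25e-07), a fold of 1.51 with a 95% interval of 1.41 to 1.61. SDHC (chromosome 1, 161314257 to 161375340, plus strand), a membrane anchor, was at 65.6, 69.4 and 67.5 CPM in CG and 77.2, 74.1 and 79.6 CPM in EG (log2 fold change 0.19, SE 0.0494, adjusted p = 0.00834). Both genes had EG libraries above all CG libraries, though SDHC was not called on the RPKM scales (adjusted p = 0.104 and 0.0989). SDHC shares 5.47% of its exon bases with CFAP126 on the opposite strand, which also rose (log2 fold change 0.25, adjusted p = 0.0114). SDHB, the iron-sulphur subunit, had a log2 fold change of 0.08 (adjusted p = 0.463, fold interval 0.943 to 1.19), and SDHD, the other membrane anchor, was at -0.0033 (adjusted p = 0.983, fold interval 0.871 to 1.14). Their groups overlapped. RPKM ratios chosen after the values were seen, and so given without a test, were 1.95 ± 0.176 in CG and 2.77 ± 0.116 in EG for SDHA to SDHB, and 5.45 ± 0.206 in CG and 8.24 ± 0.224 in EG for SDHA to SDHD (SD, n = 3 each).

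SDHA has near-copies in the genome, with which reads can be shared. Of the 100-base stretches of its transcripts, 1.18% are also in other genes, most of them in SDHAP3 (0.727%). Only identical stretches were counted, so this share does not cover near matches. The copies were not silent. Per library, SDHAP1 had between 2602 and 3150 counts, SDHAP2 between 1516 and 2001 and SDHAP3 between 188 and 291, against 6500 to 10909 of SDHA. The part of shared reads in the rise of SDHA was not tested. In the same fit SDHAP1 had a log2 fold change of 0.13 (adjusted p = 0.0572), SDHAP2 of 0.18 (adjusted p = 0.0374) and SDHAP3 of 0.35 (adjusted p = 0.0423), all below the 0.59 of SDHA. The stretch upstream of SDHA, chr5:218070-218240 on the plus strand of GRCh38.p14, is shown because it holds the NRF1 motif at 2 places, in capitals. NRF1 is a factor known for nuclear genes of the respiratory chain.
SDHA: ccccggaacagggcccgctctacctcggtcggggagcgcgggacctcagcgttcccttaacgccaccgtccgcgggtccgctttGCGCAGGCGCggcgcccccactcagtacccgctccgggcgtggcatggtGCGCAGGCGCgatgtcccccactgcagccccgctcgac
Counted over the whole windows of 250 bases before each start, which run past the stretches printed here, the motif was in 14.3% of the windows of listed genes, those of MPC2, IDH3A, IDH3G, SUCLA2, SDHA and SDHD, and in 5.07% of all windows. In SUCLA2 the match lies outside the stretch printed above. Of these genes MPC2, IDH3A, IDH3G and SDHA rose, and SUCLA2 and SDHD did not pass the test. The median GC content was 66.8% in the windows of listed genes and 58% in all windows. The part of GC content in the motif shares, and any link of the motif to a rise, was not tested.

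The last steps of the cycle did not pass the test. FH, the fumarase, was at 48.9, 52.5 and 50.8 CPM in CG and 50.4, 54.1 and 49.96 CPM in EG, with a log2 fold change of 0.02 (adjusted p = 0.805, fold interval 0.934 to 1.10). The mitochondrial malate dehydrogenase MDH2, which regenerates oxaloacetate, had a log2 fold change of -0.05 (adjusted p = 0.505, fold interval 0.897 to 1.04). The cytosolic MDH1, which serves the malate-aspartate shuttle, had 0.07 (adjusted p = 0.455, fold interval 0.949 to 1.17). The groups overlapped for each of these 3 genes. Their ratio moved slightly, with an RPKM of MDH1 over MDH2 of 0.265, 0.295 and 0.276 in CG and 0.310, 0.297 and 0.303 in EG, the lowest EG library lying just above the highest CG library (exact permutation p = 0.1, adjusted p = 0.22 over the 11 ratios).

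The malic enzymes, which turn malate back into pyruvate, were low in this line. ME2, the mitochondrial NAD-linked enzyme, was at 19.5, 20.6 and 19.7 CPM in CG and 22.6, 19.1 and 17.1 CPM in EG, with the CG values inside the EG range. The log2 fold change was -0.02 (adjusted p = 0.879, fold interval 0.857 to 1.13). ME3, the mitochondrial NADP-linked enzyme, was at 6.56, 5.68 and 5.38 CPM in CG and 7.94, 6.11 and 8.56 CPM in EG. EG replicate 2 lay below the highest CG library. The log2 fold change of ME3 was 0.35 (SE 0.141, adjusted p = 0.0683). It passed the threshold without EG replicate 2 (0.49, adjusted p = 0.0145) or without CG replicate 1 (0.45, adjusted p = 0.0416), and with no low-count filter (0.36, adjusted p = 0.0393).

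**Figure D5:**
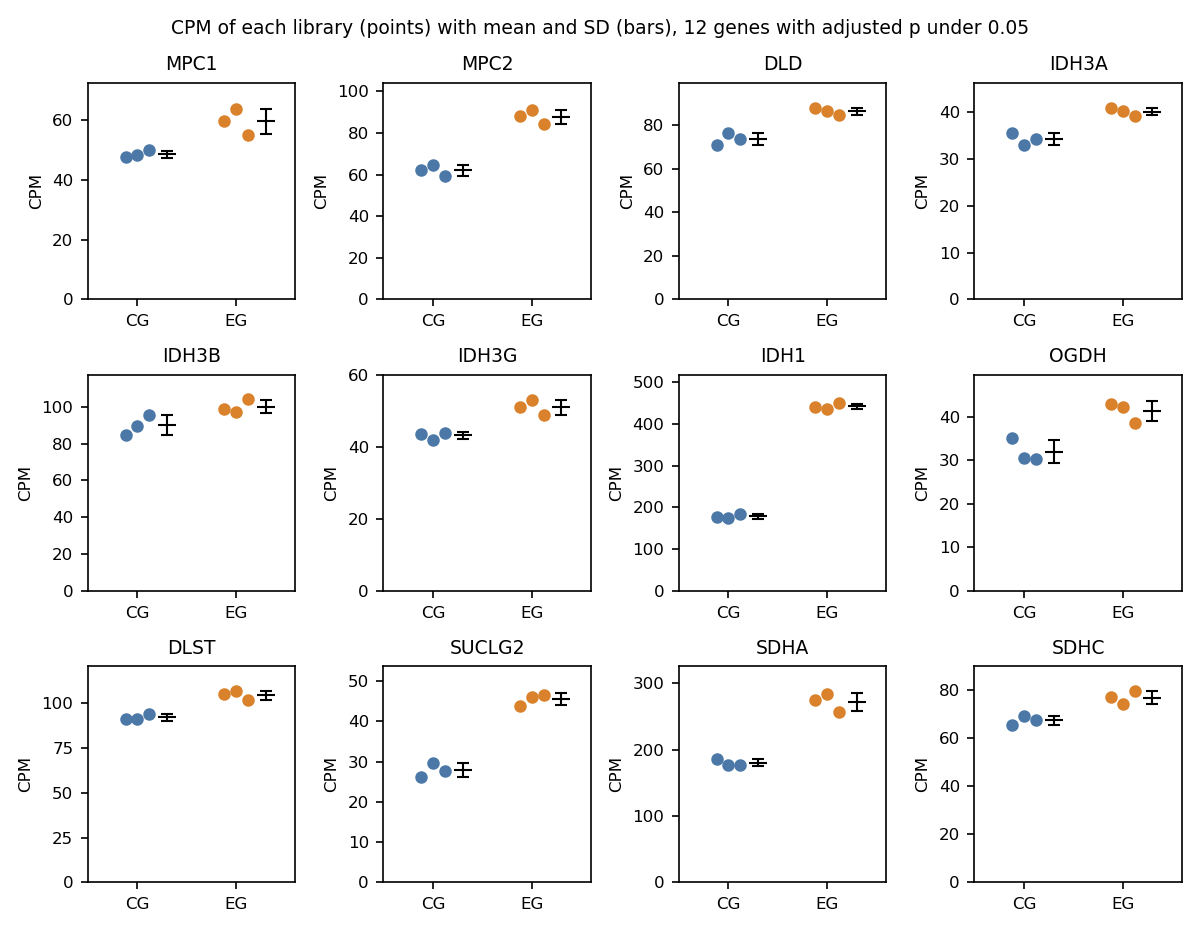
CPM of each library (points) with the mean and SD (bars) for the 12 genes with an adjusted p under 0.05, each panel starting at 0. In every panel the 3 EG points lie above the 3 CG points, with the widest gap for IDH1 and a narrow one for IDH3B.

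Of 32 further genes around the cycle, written down as a list beside the 34, 30 were in the table and tested, 10 rose and 2 fell. That was 40% of those tested, against the 33.8% of all genes given above, and their median log2 fold change was 0.11. The gene that fell most clearly was PCK2, the mitochondrial phosphoenolpyruvate carboxykinase, which draws oxaloacetate out of the cycle. It was at 58.4, 57.2 and 64.2 CPM in CG and 34.3, 35.8 and 32.3 CPM in EG, with no overlap and a log2 fold change of -0.81 (SE 0.0627, adjusted p = 1.69e-07). The other gene that fell, named after its values were seen, was SLC25A12, an aspartate-glutamate carrier (log2 fold change -0.41, adjusted p = 0.00109). PC, the pyruvate carboxylase that feeds oxaloacetate in, was at 23.2 ± 0.870 CPM in CG and 25.1 ± 2.53 CPM in EG (SD, n = 3 each, log2 fold change 0.11, adjusted p = 0.310).

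Of the genes that rose, 3 more were named by their small p. GLUD1, the glutamate dehydrogenase that makes oxoglutarate, was at 82.7, 68.9 and 67.9 CPM in CG and 106, 107 and 126 CPM in EG (log2 fold change 0.63, SE 0.0796, adjusted p = 2.55e-05). D2HGDH, which oxidises D-hydroxyglutarate back to oxoglutarate, was at 11.0, 11.7 and 10.6 CPM in CG and 14.3, 17.3 and 15.3 CPM in EG (log2 fold change 0.50, SE 0.0925, adjusted p = 7.62e-04). BCKDHA, the decarboxylase of the branched-chain oxo acid dehydrogenase, was at 14.5, 16.1 and 15.7 CPM in CG and 23.2, 26.3 and 26.3 CPM in EG (log2 fold change 0.71, SE 0.0781, adjusted p = 5.87e-06). The groups did not overlap for any of the 3. BCKDHA shares 63.8% of its exon bases with CTC-435M10.3 on the same strand, which also rose (log2 fold change 0.83, adjusted p = 5.31e-07), so its value is uncertain.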

How the data were processed

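Read counts per gene were deposited by the authors as whole numbers without normalization, for 3 CG and 3 EG libraries. The authors also deposited RPKM values, and each was the gene's count over its length and the library total (largest relative difference 2.23e-13). The submitters' processing notes name Trimmomatic 0.36, featureCounts of Subread 1.5.1, edgeR 3.12.1 and GRCh38. The annotation release and the strand setting of the counting are not given in the sources used here. Libraries were assigned to groups from their labels, and no pair within a group was a duplicate (chi-square per gene 3.85 to 11.2).

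The counts were fitted with edgeR 4.0.16 in R 4.3.3, with TMM factors, the default low-count filter of the package (minimum count 10) and the quasi-likelihood test of EG against CG without covariates. The 18183 genes tested entered the Benjamini-Hochberg adjustment. The biological coefficient of variation was 0.0788. The script was tested on simulated counts. No fold was computed for a gene at or under 3 counts in every library. Precision is limited by the depth of 33268860 to 40928176 counts per library and by 3 libraries per group. Groups were compared for RPKM ratios with exact permutation tests (two-sided). Alternatives were upper-quartile factors, library sizes alone, omission of the mitochondrial genome, other filters, DESeq2 1.42.0, limma 3.58.1 on log2(RPKM + 1) and log2(RPKM + 0.1), a replicate block, and omission of each library in turn.

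The members and lists were chosen with earlier results of these data known. Named were all members, ACO1, PC and the 5 further genes with the smallest p among those called. Some genes covered by these lists are not reported here. Promoters were those of RefSeq on GRCh38.p14 (250 bases before the start), with an entry for 31 of the 34 members. Shared stretches of 100 bases, and the exons at which the printed promoter stretches were cut, used GENCODE 29. Exon overlaps between genes used the exon positions deposited with the counts, whose annotation release is not given. ME1, PCK1, OGDHL and COL3A1 were not analysed here. Python 3.11.15 was used for the remaining steps, with pandas 2.3.3, matplotlib 3.10.9, scipy 1.17.1 and numpy 2.4.6.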

Additional observations from a re-analysis of the deposited data

How the results depend on the processing

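Of the 12 members called higher, 10 were called in all 15 alternatives, SDHC in 13 and IDH3B in 7. The count of members called higher was between 10 and 13 over the 9 alternatives with all libraries and between 11 and 13 over the omissions of 1 library. The count called lower, 0 in the report, became 1, PDK2, with upper-quartile factors, with library sizes alone and with no low-count filter, and was between 0 and 1 over those omissions (1 without EG replicate 3). The log2 fold change of PDK2 was -0.30 with upper-quartile factors (adjusted p = 0.0400), -0.30 with library sizes alone (0.0409) and -0.25 with no filter (0.0433), all from edgeR. The call of IDH3B was lost with upper-quartile factors, with library sizes alone and on both RPKM scales (adjusted p between 0.110 and 0.131). CS, not called in the report, was called with the mitochondrial genome left out (0.16, adjusted p = 0.0443) and at 1 CPM in 3 libraries (0.15, 0.0497), and ME3 with no filter (0.36, 0.0393). IDH1 was past a log2 fold change of 1 in all 15 alternatives (1.24 to 1.34).

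Signs turned for members near 0, none of them called. SUCLG1 was -0.0023 with library sizes alone, -0.0020 on log2(RPKM + 1) and -0.0021 on log2(RPKM + 0.1). FH was -0.020 with upper-quartile factors, -0.022 with library sizes alone, -0.022 on log2(RPKM + 1) and -0.023 on log2(RPKM + 0.1). SDHD was 0.0090 with the mitochondrial genome left out, 0.0002 with no filter, 0.00012 at 1 CPM in 3 libraries and 0.0032 with DESeq2. Over the 6 omissions of 1 library, log2 fold changes ran from -0.097 to 0.055 for PDHB, -0.27 to 0.024 for PDK1, -0.055 to 0.19 for PDP1, -0.10 to 0.084 for PDP2, -0.022 to 0.027 for SDHD, -0.0087 to 0.054 for FH and -0.13 to 0.077 for ME2.

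Libraries of the same number did not deviate together (correlations of -0.07, -0.01 and -0.05), and those of unlike numbers were between -0.016 and 0.063. These values cannot show whether samples were prepared in pairs, which the labels do not state. With the replicate number as a block, 12 members were higher and 0 lower, and 5953 genes in all were called in place of 6142.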

Other observations

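The list of further genes around the cycle held groups that the report does not describe. Of the 4 branched-chain and related oxo acid dehydrogenase genes tested, BCKDHA, BCKDHB and DBT rose in edgeR's quasi-likelihood test, and DHTKD1, which acts on oxoadipate, had a log2 fold change of 0.05 (adjusted p = 0.510). BCKDHB, the beta subunit of the decarboxylase, rose from 8.71 ± 0.516 to 11.0 ± 0.416 CPM (SD, n = 3 each, log2 fold change 0.34, adjusted p = 0.0122). DBT, the core of that complex, rose from 22.2 ± 0.926 to 28.8 ± 1.93 CPM (log2 fold change 0.38, adjusted p = 8.83e-04). LIAS, LIPT1 and LIPT2 act in making and attaching the lipoate that DLAT, DLST and DBT carry. None of these 3 passed the test, with log2 fold changes of -0.15, -0.20 and 0.47 (adjusted p = 0.506, 0.421 and 0.368). LIPT2 had between 18 and 57 counts per library, and the 95% interval of its log2 fold change was -0.33 to 1.28.

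Of the genes of glutamate and aspartate entry, GOT2, the mitochondrial aspartate transaminase, rose from 50.7 ± 1.56 to 60.5 ± 2.15 CPM (SD, n = 3 each, log2 fold change 0.25, adjusted p = 0.00171). GLS2, the liver-type glutaminase, was at 16.7 ± 0.0424 CPM in CG and 14.7 ± 0.643 CPM in EG, without overlap (log2 fold change -0.18, adjusted p = 0.0909). GLS2 shares 77.1% of its exon bases with SPRYD4 on the opposite strand. SPRYD4 had 3706 counts over all libraries against 3505 of GLS2 (log2 fold change of SPRYD4 -0.05, adjusted p = 0.649). The strand setting of the counting is not stated, so the value of GLS2 is uncertain. PDPR, the regulatory subunit of the pyruvate dehydrogenase phosphatase, rose from 20.3 ± 0.945 to 24.8 ± 1.59 CPM (log2 fold change 0.29, adjusted p = 0.00659), while its catalytic partners PDP1 and PDP2 did not pass the test. PDPR shares 19.6% of its exon bases with RP11-296I10.3 on the opposite strand, which also rose (log2 fold change 0.37, adjusted p = 0.0236). The citrate carrier SLC25A1 was at 32.6, 21.4 and 23.6 CPM in CG and 26.4, 28.0 and 58.2 CPM in EG, where EG replicate 3 stood apart from the rest (log2 fold change 0.53, adjusted p = 0.106). The genes of this section were named after their values were seen.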
